A study of Mus musculus with 21 samples.

Results

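Obese CD11c-positive adipose tissue macrophages were compared with obese MHCII-low macrophages across all expressed genes. The 6 libraries compared, 3 of each population, belong to a series of 21 libraries in 7 sorted groups. The CD11c-positive macrophages carried both MHC class II and CD11c on their surface, and the MHCII-low macrophages were sorted for low MHC class II. Both were sorted from fat of male C57BL/6 mice kept on a high fat diet for 16 weeks, so diet, sex and strain were shared by all 6 libraries. The tissue was dissociated with collagenase before sorting, and the labels give neither the depot nor the age of the mice. The other obese groups, macrophages with MHC class II but without CD11c (CD11c-negative) and cells labelled monocyte-derived, are given beside these where a level is followed across populations, as are the lean groups from mice on a normal diet for the same time. Libraries of each group carry the numbers 1 to 3, and obese libraries of equal number were paired in the model. The labels do not say whether replicates are separate animals, so the p-values measure only the spread between these samples.

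Macrophages are the main immune cells of adipose tissue. Those of lean tissue take up debris, iron and lipid and carry scavenger receptors and lectins such as LYVE1, CD163 and the CD209 family. In obesity, macrophages that carry the integrin CD11c accumulate around dying adipocytes, where they engulf lipid and digest it in lysosomes. CD11c is the product of Itgax and pairs with the beta 2 integrin Itgb2. MHC class II molecules present peptides from engulfed material to helper T cells. H2-Aa, H2-Ab1 and H2-Eb1 encode their chains, Cd74 the invariant chain that guides them, and Ciita the coactivator that turns these genes on.

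The 2 genes behind the sort were measured first, as a check of the labels. Itgax stood at 21.4, 58.3 and 53.7 CPM (a gene's counts relative to the library size, scaled between libraries) in MHCII-low replicates 1 to 3 and at 479.9, 648 and 631 CPM in CD11c-positive replicates 1 to 3. H2-Ab1 stood at 267, 327 and 443 CPM in the MHCII-low libraries and at 2207, 1226 and 1680 CPM in the CD11c-positive libraries. Neither gene overlapped between the populations, and both sides match the gates. Itgax was 13.7-fold and H2-Ab1 4.82-fold higher in CD11c-positive macrophages by the fitted fold change, which describes the sort and is not a finding.

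General macrophage genes were high in both populations. Adgre1, the F4/80 antigen, had a log2 difference of 0.23 (adjusted p = 0.109) and Lyz2, lysozyme, one of -0.06 (adjusted p = 0.615). Cd68, a lysosomal membrane protein, was higher in CD11c-positive macrophages by 0.44 on the log2 scale (SE 0.08, adjusted p = 0.000718). Csf1r, the receptor for the macrophage growth factor M-CSF, was lower, with a log2 fold change of -0.42 (SE 0.09, adjusted p = 0.00319), and so was Mertk, a receptor for dying cells, at -0.73 (SE 0.24, adjusted p = 0.0405). The call of Csf1r was lost when all 21 libraries were fitted together (adjusted p = 0.299).

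Library totals ran from 30073052 to 31965501 counts in CD11c-positive and from 30083259 to 35568948 counts in MHCII-low macrophages. Replicates correlated at 0.985 to 0.989 and 0.979 to 0.989 in log2 CPM. MHCII-low replicate 1 stood apart from replicates 2 and 3 in many of the genes below, with the highest level of genes that were lower in CD11c-positive macrophages and the lowest level of genes that were higher. Its values are therefore given one by one.

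The difference between the populations was broad. Of 54532 counted genes, 20081 passed the filter on low counts. Of these 20081 tested genes, 3907 (19.5%) were higher and 3869 (19.3%) lower in CD11c-positive macrophages at an adjusted p under 0.05, together 38.7%. Among them, 682 (3.40%) were higher and 1536 (7.65%) lower with a log2 fold change of at least 1. The median over all tested genes was -0.003. The 6 libraries did not overlap in 45.8% of genes. Without replicate 3 the 7776 calls came to 4303.

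The balance of calls differed between gene classes. Of 14059 protein-coding genes, 3528 were higher and 2580 lower. Among transcript models that the annotation marks as awaiting experimental evidence (TEC), 73 of 1259 were higher and 404 lower, and among antisense genes 40 of 1084 were higher and 270 lower. Counts of 1967 receptor genes of smell and pheromone sensing, which macrophages are not known to use, summed to 24.9 to 27.3 CPM in CD11c-positive and 34.2 to 56.1 CPM in MHCII-low libraries, and their part in the lower non-coding calls was not tested. Among the 8708 genes with at least 10 CPM in the higher population, 2850 (32.7%) were higher and 1890 (21.7%) lower. Counts of called members in the gene lists below are to be read beside these shares, and no set test was run. Of these 8708, 246 (2.82%) were higher and 381 (4.38%) lower by a log2 fold change of at least 1.

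**Figure D1:**
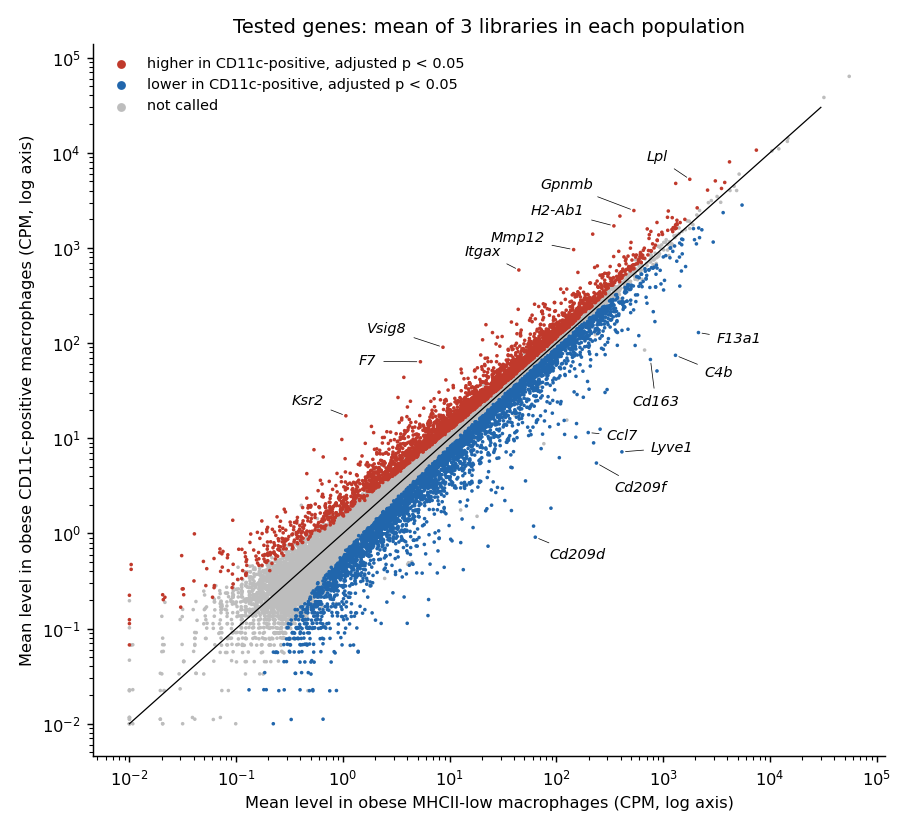
Mean CPM of 3 libraries in MHCII-low (x axis) against CD11c-positive macrophages (y axis), both on log axes, for the 20081 tested genes, with means under 0.01 CPM drawn at 0.01. Red points were called higher and blue points lower in CD11c-positive macrophages, grey points were not called, and the line marks equal levels. Lyve1, Cd209d and Cd209f lie farther from the line than any of the named rises.

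The largest changes were taken from called protein-coding genes with at least 10 CPM and no overlap between the populations. Separate libraries were thus a condition for the 15 largest rises and the 15 largest falls, not a finding. Among these genes, 14 of the 15 largest rises were Ksr2, Itgax, F7, Ear2, Vsig8, Dcstamp, Myh15, Mmp12, Cxcl9, H2-Eb1, Npas4, Map2, F10 and H2-Aa, with log2 fold changes from 4.08 down to 2.43. Ksr2, a scaffold of the RAF and MEK kinases, measured 0.555, 0.966 and 1.68 CPM in the MHCII-low libraries against 16.7, 15.3 and 19.6 CPM in the CD11c-positive libraries (log2 fold change 4.08, SE 0.25, adjusted p = 3.22e-07). The lowest CD11c-positive library was thus far above the highest MHCII-low library. Vsig8, an immunoglobulin domain protein, measured 3.59, 11.1 and 11.3 CPM against 84.6, 92.5 and 94.3 CPM (3.51, SE 0.27, adjusted p = 2.67e-05). Mmp12, the macrophage elastase, measured 71.7, 195 and 168 CPM against 651, 1196 and 1033 CPM (2.79, SE 0.12, adjusted p = 2.47e-08). Replicate 1 was lowest in both populations for Mmp12, and the populations remained apart within each number. Dcstamp, a membrane protein needed for the fusion of macrophages into giant cells and osteoclasts, had a log2 fold change of 3.03 (SE 0.31, adjusted p = 0.000109).

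The 15 largest falls were Cd209d, Lyve1, Cd209b, Cd209g, Cd209f, Mctp2, C6, Cbr2, Fcna, C4b, Enpep, Ednrb, Ccl7, F13a1 and Ccl12, with log2 fold changes from -6.09 to -3.97. Lyve1, the hyaluronan receptor that marks perivascular resident macrophages, measured 628, 351 and 253 CPM in the MHCII-low libraries against 6.45, 7.74 and 7.40 CPM in the CD11c-positive libraries (-5.78, SE 0.47, adjusted p = 9.64e-05). Its CD11c-positive libraries lay close together, while its MHCII-low libraries spread widely with replicate 1 highest. Ednrb, a receptor for endothelins, measured 1264, 709 and 652 CPM against 47.7, 56.5 and 48.7 CPM (-4.06, SE 0.29, adjusted p = 2.75e-05). F13a1, the A chain of coagulation factor XIII, measured 3368, 1594 and 1462 CPM against 168, 99.99 and 119 CPM (-4.02, SE 0.29, adjusted p = 2.55e-05). The highest CD11c-positive library of F13a1 was below the lowest MHCII-low library, which the choice of genes required.

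**Figure D2:**
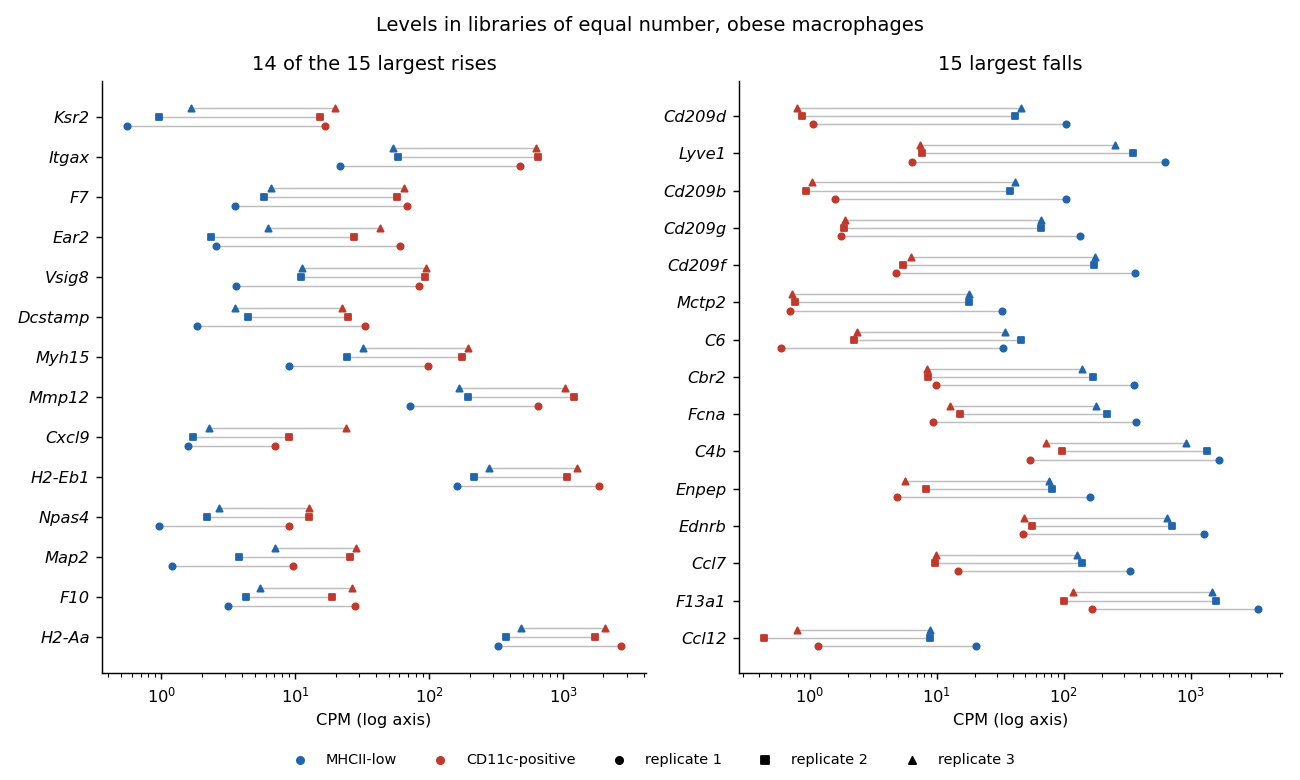
CPM (log axis) of 14 of the 15 largest rises and of the 15 largest falls, with a grey line joining the MHCII-low library (blue) and the CD11c-positive library (red) of equal number, and the number given by the marker shape. These genes were chosen for no overlap between the populations. Every line of a rise therefore runs to the right from blue to red, and every line of a fall to the left. Replicate 1 of MHCII-low macrophages (blue circle) is the highest of its population in 14 of the 15 falls.

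Antigen presentation genes were higher in CD11c-positive macrophages. Of 14 tested genes of MHC class II presentation, 11 were higher and 0 lower, with a median log2 fold change of 1.47. H2-Aa, which encodes the alpha chain of I-A, measured 325, 374 and 481 CPM in the MHCII-low libraries against 2707, 1720 and 2060 CPM in the CD11c-positive libraries (2.43, SE 0.15, adjusted p = 8.81e-07). Cd74 measured 1066, 1233 and 1633 CPM against 5825, 3616 and 4850 CPM (1.84, SE 0.14, adjusted p = 3.44e-06). Replicate 1 was lowest of the MHCII-low and highest of the CD11c-positive libraries in both genes. The peptide editors H2-DMa, H2-DMb1 and H2-DMb2 had log2 fold changes of 1.45, 1.59 and 1.88. Ctss, the protease that trims the invariant chain, was higher by 1.07 (SE 0.07, adjusted p = 4.79e-07). H2-Oa (1.49), H2-Ob (-0.18) and Lgmn (-0.14) were not called. The sort on MHC class II is part of this comparison, so the group describes the gate as well as the cells.

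Class II gene promoters share an upstream element whose Y box is bound by NF-Y. The 200 bases before the start of H2-Aa and H2-Eb1, from RefSeq on build GRCm38.p6, are shown because these chain genes carried the largest class II differences, with each match to the Y box core ATTGG, or CCAAT on the other strand, in capitals. H2-Ab1 had no entry in the table used. The H2-Aa window lies at chr17:34287824-34288023 on the minus strand and the H2-Eb1 window at chr17:34305667-34305866 on the plus strand.
H2-Aa: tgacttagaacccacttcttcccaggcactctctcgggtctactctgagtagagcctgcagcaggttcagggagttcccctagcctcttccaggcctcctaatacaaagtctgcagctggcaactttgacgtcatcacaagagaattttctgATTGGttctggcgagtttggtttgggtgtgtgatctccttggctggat
H2-Eb1: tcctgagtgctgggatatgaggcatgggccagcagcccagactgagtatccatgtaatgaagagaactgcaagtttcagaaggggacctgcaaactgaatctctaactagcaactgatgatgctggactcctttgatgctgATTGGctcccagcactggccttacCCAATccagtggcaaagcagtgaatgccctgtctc
The first base of the match lay 48 bases before the start in H2-Aa. In H2-Eb1 it lay 59 bases before the start, and a match on the other strand began 35 bases before it. Of 11 class II list genes with an entry, 9 held ATTGG on either strand in any of their windows, against 29.3% of 32851 windows of the same length. List genes were counted by gene and the share by single window, so the units differ. The longer run CTGATTGG, present in both sequences and searched after they were seen, contains ATTGG and was held by 4 of 11 against 3.54% of all windows. The 4 include H2-Aa and H2-Eb1, from which the run was read, so their match was fixed in advance. The remaining holders were H2-Eb2 and H2-Oa. A match describes these letters only.

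The class II region on chromosome 17 was not raised as a block. Within 150 kb of H2-Ab1, 15 coding genes were tested, of which 9 were higher, H2-Ab1 itself among them, and 1 lower. The peptide transporter gene Tap1 and the proteasome subunit gene Psmb8, which lie between class II genes and serve class I, differed by 0.32 and 0.45. Tap2 (0.12), Psmb9 (0.26) and Brd2 (-0.08) were not called. Btnl2, a butyrophilin-like gene next to H2-Eb2, was lower, at a mean of 4.92 CPM in MHCII-low and 0.858 CPM in CD11c-positive macrophages (-2.45, SE 0.26, adjusted p = 1.97e-05).

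Costimulation genes moved in both directions, 6 higher and 5 lower of 17. These counts lie near the shares among all genes with at least 10 CPM (32.7% and 21.7%). Tnfsf4, the OX40 ligand, was higher by 2.55 (SE 0.28, adjusted p = 2.22e-05) at a low level of 2.96 to 4.25 CPM, against 0.292 to 0.806 CPM. Cd274, which encodes the checkpoint ligand PD-L1, was higher by 0.91 (SE 0.12, adjusted p = 0.000127). Cd86, a ligand of the T cell receptor CD28, went the other way, at 394, 199 and 200.3 CPM in the MHCII-low libraries against 121, 64.5 and 78.9 CPM in the CD11c-positive libraries (-1.58, SE 0.11, adjusted p = 8.81e-07). Its partner Cd80 was also lower (-0.88, SE 0.11, adjusted p = 5.55e-05), a call that was lost without the pairing by number (adjusted p = 0.0751). The class II chains and Cd86 therefore differed in opposite directions.

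Of 18 integrin genes, 9 were higher, the sort gene Itgax among them, 1 was lower and 8 were not called, with a median of 0.41. Without the pairing by number 6 were higher. Itgad, the beta 2 integrin alpha chain gene next to Itgax on chromosome 7, measured 0.409, 0.810 and 0.742 CPM against 6.82, 6.13 and 6.14 CPM (3.30, SE 0.25, adjusted p = 1.39e-06). Other genes overlap Itgad on the opposite strand, and the counting strand is not known here. Itgam, the CD11b gene on the other side of Itgax, measured 144, 137 and 136 CPM against 148, 142 and 150.1 CPM and was not called (0.07, SE 0.06, adjusted p = 0.362). Of 12 coding genes tested within 150 kb of Itgax, Itgax and Itgad were higher and 2 genes lower. Itgb2, the shared beta chain, was higher by 0.56 (SE 0.07, adjusted p = 8.04e-05), and Itgav, which pairs with several beta chains to bind apoptotic cells and matrix, by 0.85 (SE 0.07, adjusted p = 1.32e-06).

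The coagulation genes F7 and F10 were neighbours that were both higher. F7, which encodes the factor VII that starts clotting with tissue factor, measured 3.53, 5.86 and 6.58 CPM in the MHCII-low libraries against 68.5, 57.5 and 65.0 CPM in the CD11c-positive libraries (3.59, SE 0.19, adjusted p = 3.52e-07). F10, its substrate factor X, measured 3.15, 4.27 and 5.45 CPM against 28.0, 18.8 and 26.6 CPM (2.50, SE 0.18, adjusted p = 1.63e-06). No library of either gene overlapped the other population, which their choice among the largest rises required. F7 lies at chr8:13026034-13035809 and F10 at chr8:13037308-13056676. Within 150 kb of F7, 6 of 8 coding genes tested were higher, F7 and F10 among them. The others included Mcf2l (1.75), upstream of F7, Proz (0.81), a vitamin K dependent relative of the clotting factors, and Cul4a (0.25). Lamp1, in the same stretch, was not called (-0.16), and Grtp1 was lower (-0.91).

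Genes of lipid-associated macrophages were higher in CD11c-positive macrophages. Of 20 tested, 18 were higher and 0 lower, with a median of 0.96, and their summed level was 28049 to 33570 CPM of the library total against 17268 to 23811 CPM. Gpnmb, a glycoprotein of lipid-laden phagocytes, measured 262, 642 and 691 CPM in the MHCII-low libraries against 2028, 2743 and 2642 CPM in the CD11c-positive libraries (2.32, SE 0.17, adjusted p = 7.20e-06). Trem2, the lipid receptor of these cells, measured 115, 175 and 186 CPM against 279, 377 and 382 CPM (1.13, SE 0.08, adjusted p = 4.79e-07). The populations were apart in both genes, as in 24.3% of all tested genes in this direction, with MHCII-low replicate 1 lowest. Cd9, a tetraspanin, was higher by 1.60 (SE 0.22, adjusted p = 0.000604) and Lgals3, galectin 3, by 1.13 (SE 0.10, adjusted p = 5.01e-06). Spp1, osteopontin, was higher by 1.17 (SE 0.12, adjusted p = 2.55e-05), a call that was lost with all 21 libraries in the fit (adjusted p = 0.0848). In that fit 11 of the 20 genes were higher.

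Apoe, the apolipoprotein that carries cholesterol out of macrophages, did not follow the list. It measured 4429, 4691 and 5513 CPM in the MHCII-low libraries and 3437, 3951 and 4650 CPM in the CD11c-positive libraries, with overlap (-0.30, SE 0.17, adjusted p = 0.187). Apoe was called lower when only the 6 libraries were fitted with the pairing (adjusted p = 0.0208), without the filter on low counts (5.23e-06) and without replicate 1 (0.00859). In these fits the SE was 0.06 to 0.08 and the log2 fold change -0.31 to -0.25, so the calls came with smaller SEs. Apoe was not called in the 6 libraries without the pairing.

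Lipid uptake and binding genes were higher in 14 of 18 cases and lower in 3. Lpl, the lipase that frees fatty acids from lipoproteins, measured 922, 2181 and 2224 CPM in the MHCII-low libraries against 4592, 5581 and 5618 CPM in the CD11c-positive libraries (1.64, SE 0.16, adjusted p = 3.89e-05). Olr1, a receptor for oxidised LDL, measured 16.3, 9.81 and 12.3 CPM against 67.8, 39.2 and 52.5 CPM (2.04, SE 0.08, adjusted p = 1.37e-08). Fabp4, the fatty acid binding protein of adipocytes and macrophages, measured 33.0, 70.4 and 68.2 CPM against 184, 192 and 172 CPM (1.74, SE 0.18, adjusted p = 7.95e-05). In each of these genes the CD11c-positive libraries lay above all MHCII-low libraries, as in 24.3% of all tested genes. The members that were lower were Marco, a scavenger receptor (-2.51), Cd5l, a protein secreted by macrophages (-1.03), and Vldlr, the VLDL receptor (-0.60).

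Endothelial transcripts moved in the same direction as these lipid genes. Of 14 endothelial markers, 13 were higher and 0 lower, with a median of 1.47, and their sum was 379 to 482 CPM of the library total in CD11c-positive against 97.0 to 199 CPM in MHCII-low libraries. Fabp4 belongs to that list, and without it the sums were 216 to 297 CPM against 65.3 to 129 CPM. Flt1, a VEGF receptor, measured 6.46, 13.8 and 12.2 CPM in the MHCII-low libraries against 35.7, 37.3 and 28.9 CPM in the CD11c-positive libraries (1.70, SE 0.19, adjusted p = 9.44e-05). Gpihbp1, which holds LPL on capillary endothelium and is counted in the lipid uptake list, was higher by 1.37. The part of endothelial RNA in the higher Fabp4, Gpihbp1, Cd36 and Lpl was not tested.

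Sterol handling and storage genes were higher in 9 and lower in 1 of 17. Nr1h3, the nuclear receptor LXR alpha that senses sterols, measured 13.9, 24.5 and 22.1 CPM against 51.2, 53.2 and 54.8 CPM (1.42, SE 0.11, adjusted p = 1.85e-06). Its target Abcg1, a sterol exporter, was higher by 1.09, whereas Abca1, another exporter and target, was not called (-0.07). Soat1, which esterifies cholesterol for storage, measured 228, 264 and 244 CPM in the MHCII-low libraries and 388, 387 and 388 CPM in the CD11c-positive libraries (0.65, SE 0.07, adjusted p = 1.20e-05). Nceh1, which hydrolyses the esters again, was higher by 0.94 (SE 0.10, adjusted p = 1.65e-05) and Pnpla2, the triglyceride lipase ATGL, by 0.72 (SE 0.08, adjusted p = 1.95e-05). Genes for both making and breaking sterol esters thus were higher.

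Genes for making sterols and fatty acids were higher as well, 16 of 28 with 0 lower and a median of 0.47. Hmgcs1, an early step, was higher by 0.78 (SE 0.11, adjusted p = 0.000136) and Acaca, which commits acetyl-CoA to fatty acids, by 0.57 (SE 0.08, adjusted p = 0.000127). Sqle (-0.09), a later enzyme of the sterol pathway, was not called.

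The lysosome list was mixed. Of 28 genes, 13 were higher and 3 lower, with a median of 0.19. The higher ones were largely hydrolases. Ctsk, a collagen-degrading cathepsin, measured 40.3, 92.3 and 88.4 CPM in the MHCII-low libraries against 158, 240.1 and 252 CPM in the CD11c-positive libraries (1.61, SE 0.10, adjusted p = 3.22e-07). Acp5, the tartrate-resistant acid phosphatase, measured 24.7, 34.9 and 28.9 CPM against 96.2, 91.8 and 90.3 CPM (1.66, SE 0.11, adjusted p = 6.64e-07). Lipa, the lysosomal acid lipase that frees cholesterol from lipoproteins, was higher by 0.98 (SE 0.08, adjusted p = 2.66e-06). Atp6v0d2, a proton pump subunit of osteoclasts and lipid-laden macrophages, measured 89.6, 187 and 201 CPM against 469.98, 603 and 586 CPM (1.87, SE 0.14, adjusted p = 3.93e-06). The commonly expressed pump subunits Atp6v1a (0.15) and Atp6v0d1 (-0.14) and the membrane protein Lamp1 were not called. Ctsc, a cathepsin that activates serine proteases, was lower (-1.20).

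Mitf, a transcription factor of lysosome genes, was higher by 0.45, while its relatives Tfeb (0.24) and Tfe3 (-0.13) were not called. These factors bind the sequence CACGTG and its extensions. CACGTG, which reads the same on both strands, was searched in the 200 bases before the start. It was held by 6 of 22 lysosome list genes with an entry, in any of their windows, and by 5.26% of all single windows. Of the 6, Ctsd was higher, and Atp6v1a, Ctsa, Gla, Lamp1 and Mcoln1 were not called.

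Oxidative phosphorylation genes were higher by small amounts. Of 27 genes, 23 were higher and 0 lower, with a median of 0.33. Sdhb, a subunit of succinate dehydrogenase, measured 45.2, 52.0 and 52.2 CPM in the MHCII-low libraries against 68.3, 69.8 and 72.9 CPM in the CD11c-positive libraries (0.49, SE 0.08, adjusted p = 0.000301). Atp5c1, an ATP synthase subunit, was higher by 0.46 (SE 0.08, adjusted p = 0.000484). These counts rested on few libraries: 3 were higher without replicate 3, 14 without MHCII-low replicate 3, 15 without CD11c-positive replicate 2 and 2 with all 21 libraries in the fit. Of 21 fatty acid oxidation genes, 8 were higher and 2 lower, and 4 were higher without replicate 3 or without CD11c-positive replicate 3. Among all genes with at least 10 CPM, 32.7% were higher and 21.7% lower. Hadha and Hadhb, the subunits of the mitochondrial trifunctional protein, were higher by 0.65 and 0.52, while Acadvl, which starts the oxidation of very long chains, was lower (-0.39).

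Glycolysis and hypoxia genes were higher in 14 and lower in 5 of 25. Slc2a1, the glucose transporter GLUT1, measured 19.9, 29.0 and 28.6 CPM against 50.8, 55.9 and 57.8 CPM (1.09, SE 0.09, adjusted p = 3.90e-06). Vegfa, the vascular growth factor, measured 57.6, 84.9 and 116 CPM against 202, 198 and 277 CPM (1.401, SE 0.15, adjusted p = 5.73e-05). Ldha, lactate dehydrogenase, was higher by 0.70 (SE 0.08, adjusted p = 4.39e-05). The lower members Pfkfb3 (-1.55), Bnip3 (-0.67), Adm (-0.65), Hk2 (-0.47) and Hk1 (-0.31) include known targets of hypoxia as well. Between 2 and 3 of the 5 were lower when any 1 library other than MHCII-low replicate 3 was left out.

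Cell cycle genes were higher in 23 of 29 cases and lower in 0, with a median of 0.54. Rrm2, which makes deoxynucleotides, measured 11.2, 14.6 and 12.7 CPM in the MHCII-low libraries against 23.2, 28.0 and 26.1 CPM in the CD11c-positive libraries (1.00, SE 0.12, adjusted p = 3.46e-05). The replication helicase genes Mcm2, Mcm5 and Mcm6 were higher by 0.75, 0.86 and 0.71. The list summed to 1198 to 1426 CPM of the library total against 914 to 952 CPM. Without replicate 3, 15 of the 29 were higher.

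**Figure D3:**
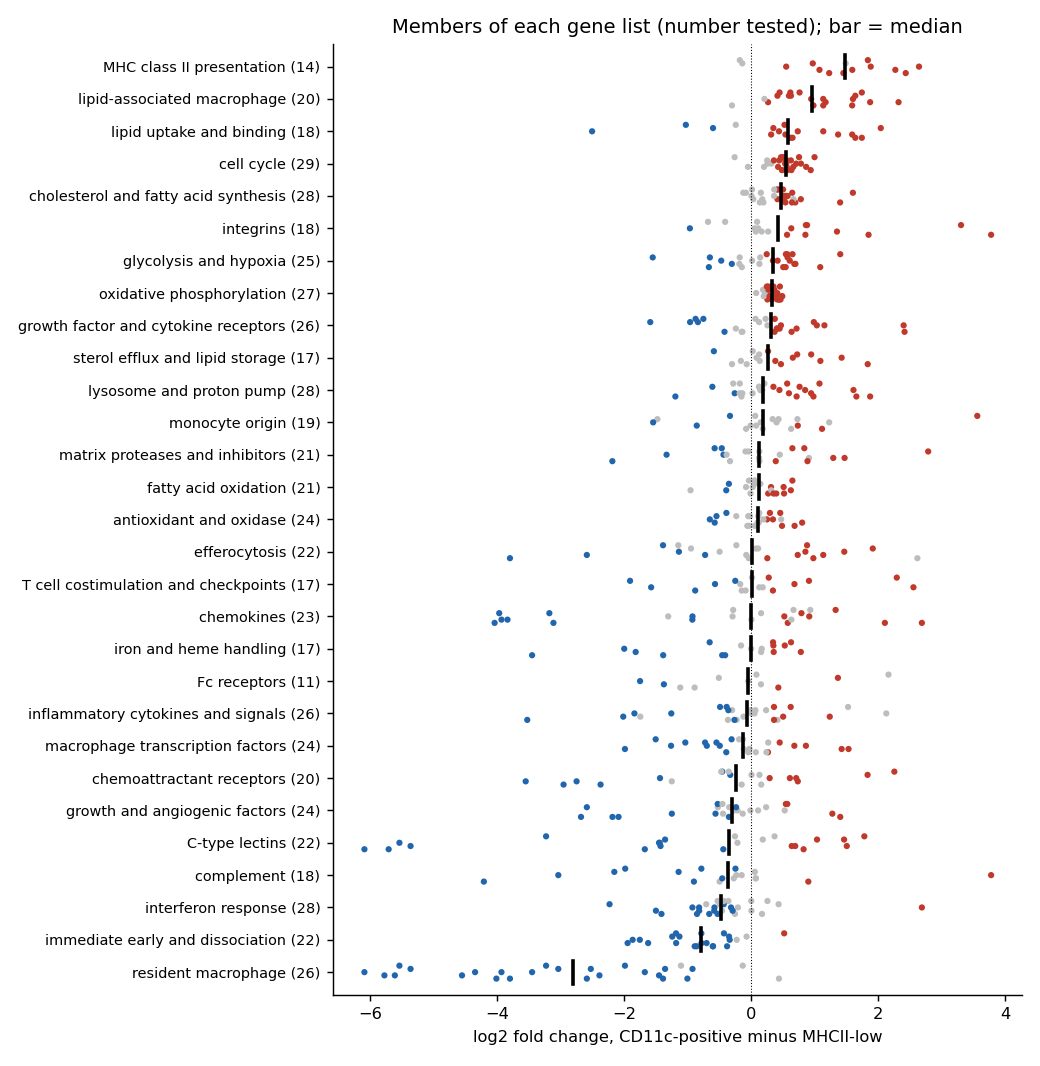
Log2 fold change of CD11c-positive over MHCII-low macrophages (x axis) for the tested members of 29 gene lists, 1 point a gene, with red for called higher, blue for called lower, grey for not called and a black bar at the median. The 10 marker lists of other cells are not drawn. Among the lists drawn, the class II list, which holds the sort gene H2-Ab1, has the highest median (1.47) and the resident macrophage list the lowest (-2.82). The endothelial list, not drawn, also has a median of 1.47.

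Resident macrophage genes were lower in CD11c-positive macrophages. Of 26 tested, 0 were higher and 23 lower, with a median of -2.82, and their sum was 5095 to 6010 CPM of the library total against 15209 to 20938 CPM. Cd163, the scavenger receptor for haemoglobin and haptoglobin, measured 1088, 643 and 549 CPM in the MHCII-low libraries against 62.5, 73.0 and 66.3 CPM in the CD11c-positive libraries (-3.45, SE 0.21, adjusted p = 6.00e-06). Timd4, a receptor for phosphatidylserine, measured 22.8, 15.7 and 11.1 CPM against 0.931, 1.37 and 1.15 CPM (-3.80, SE 0.28, adjusted p = 2.92e-06). Mrc1, the mannose receptor CD206, measured 3573, 2724 and 2533 CPM against 1143, 1166 and 1148 CPM (-1.36, SE 0.12, adjusted p = 4.48e-06). No library of these 3 genes overlapped the other population, and the CD11c-positive libraries of Mrc1 lay within a narrow range. These genes were named for small p-values, which favours such separation, and 21.5% of all tested genes were separated in this direction.

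Of the resident list, Igf1, Folr2 and Lilra5 were not called. Igf1, insulin-like growth factor 1, measured 429, 489 and 490.4 CPM against 349, 478 and 478 CPM (-0.13, SE 0.10, adjusted p = 0.284). Folr2, a folate receptor, measured 85.7, 59.2 and 64.6 CPM against 19.3, 46.5 and 40.2 CPM without overlap (-1.11, SE 0.38, adjusted p = 0.0552). Folr2 was called lower in 7 of the 18 alternatives. These were the fits without replicate 1 (adjusted p = 0.00118), without replicate 2 (0.0369) and without MHCII-low replicate 2 (0.0271). The others were the 6 libraries with the pairing (0.0469) or without it (0.0336), no filter on low counts (1.2e-25) and the 10 CPM filter (0.0154). Without the filter on low counts the log2 fold change stayed at -1.12 while the SE fell to 0.10. That small p-value thus came with a smaller SE and not with a larger difference.

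The Cd209 lectins, relatives of human DC-SIGN that bind sugars of microbes and host glycoproteins, are encoded in a cluster on chromosome 8. Cd209d measured 103, 41.0 and 45.8 CPM in the MHCII-low libraries against 1.06, 0.871 and 0.803 CPM in the CD11c-positive libraries (-6.09, SE 0.31, adjusted p = 8.81e-07). Cd209f measured 361, 174 and 176 CPM against 4.79, 5.39 and 6.28 CPM (-5.37, SE 0.32, adjusted p = 1.01e-05). Each was far lower in all CD11c-positive libraries, and replicate 1 of MHCII-low macrophages was highest. Within 150 kb of Cd209d, at chr8:3871824-3878555, 5 of 5 coding genes tested were lower, Cd209d itself among them. The others were Cd209a at -3.23, Cd209b at -5.61, Cd209c at -2.69 and Cd209e at -4.27. These genes are similar in sequence and may share reads, so each single value is less certain than the direction of the cluster.

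Other C-type lectins split. Of 22 in the list, which holds 4 of the Cd209 genes, 7 were higher and 11 lower. Clec10a, the galactose lectin MGL1, measured 342, 245 and 239 CPM against 91.3, 91.2 and 75.5 CPM (-1.68, SE 0.11, adjusted p = 8.81e-07). Clec7a, the beta-glucan receptor Dectin-1, and Clec4e, the receptor Mincle for mycobacterial glycolipid, were higher by 1.04 and 0.82. Clec4n, Dectin-2, was lower (-1.43).

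Transcription factor genes were lower more often than higher, 10 against 6 of 24. Maf, a factor of resident macrophages, measured 468, 329 and 319 CPM in the MHCII-low libraries against 89.5, 91.9 and 103 CPM in the CD11c-positive libraries (-1.99, SE 0.24, adjusted p = 0.000412). Klf4 measured 1208, 882 and 937 CPM against 319.5, 344 and 421 CPM (-1.51, SE 0.14, adjusted p = 1.89e-05). Both were separated in every library, as were 21.5% of all tested genes in this direction. Irf4, which acts downstream of IL-4, was lower (-1.26, SE 0.12, adjusted p = 1.85e-05), and Il4ra, the IL-4 receptor chain, was lower at 558, 334 and 343 CPM against 168, 109 and 131 CPM (-1.59, SE 0.08, adjusted p = 5.32e-08). Bhlhe40, a repressor active in proliferating tissue macrophages, measured 81.4, 69.9 and 66.8 CPM against 253, 172 and 217 CPM (1.53, SE 0.09, adjusted p = 1.36e-07). Pparg was higher by 0.86. Without the pairing by number 6 of the 24 were lower.

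Complement genes were lower in 9 and higher in 2 of 18. C4b, the complement component that opens the classical and lectin routes, measured 1664, 1334 and 917 CPM in the MHCII-low libraries against 54.0, 96.5 and 72.7 CPM in the CD11c-positive libraries (-4.21, SE 0.51, adjusted p = 0.000782). Vsig4, the complement receptor of resident macrophages, was lower as well (-3.04, SE 0.39, adjusted p = 0.000584). The genes of the C1q chains, C1qa (-0.50), C1qb (0.07) and C1qc (-0.24), were not called. One of the 2 higher genes was Itgax, which is also a complement receptor chain, and the other was Cd59a (0.90), a protector against lysis.

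Of 11 Fc receptor genes, 2 were higher and 2 lower, shares near those over all tested genes (19.5% and 19.3%). Fcgr2b, the inhibitory IgG receptor, measured 433, 329.7 and 305 CPM against 141, 129 and 142 CPM (-1.38, SE 0.10, adjusted p = 6.62e-07). Fcgrt, which recycles IgG, was lower (-1.75, SE 0.13, adjusted p = 2.44e-06). Fcgr4, an activating receptor, was higher (1.36, SE 0.18, adjusted p = 0.000241), at 28.5, 28.8 and 37.3 CPM against 7.22, 14.4 and 16.9 CPM. Fcgr3 was not called (-0.05).

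Iron and haem genes moved both ways, 6 higher and 7 lower of 17. Hmox1, which breaks down haem, measured 2252, 948 and 1096 CPM in the MHCII-low libraries against 566, 286 and 339.6 CPM in the CD11c-positive libraries (-1.82, SE 0.22, adjusted p = 0.000288). Slc40a1, the iron exporter ferroportin, was lower (-2.001), and so was Tfrc, the transferrin receptor (-1.39, SE 0.14, adjusted p = 3.58e-05). Fth1, the ferritin heavy chain, was higher by 0.35 and Slc48a1, a haem transporter of the lysosome, by 0.78 (SE 0.09, adjusted p = 3.38e-05). Steap3, which reduces the iron taken up with transferrin, was higher by 0.63, so genes of iron uptake differed in both directions. Without replicate 3, 3 of the 17 were higher.

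Chemokine genes were higher in 7 and lower in 8 of 23, beside shares of 32.7% and 21.7% among all genes with at least 10 CPM. The monocyte attractants Ccl2 and Ccl7 are neighbours on chromosome 11. Ccl2 measured 495, 204 and 196 CPM in the MHCII-low libraries against 41.4, 28.7 and 27.3 CPM in the CD11c-positive libraries (-3.12, SE 0.29, adjusted p = 0.000101). Ccl7 measured 329.9, 139 and 127 CPM against 14.8, 9.71 and 9.91 CPM (-4.04, SE 0.34, adjusted p = 8.88e-05). Replicate 1 was highest in both populations for these 2 genes. Within 150 kb of Ccl7, at chr11:82045712-82047525, 4 of 5 coding genes tested were lower, Ccl7 and Ccl2 among them, with Ccl8 at -3.94 and Ccl12 at -3.97. The eosinophil attractant Ccl11 was not called (-0.23).

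Among the higher chemokines, Cxcl9, an attractant of CXCR3-bearing T cells, measured 1.58, 1.71 and 2.26 CPM against 7.08, 9.01 and 23.9 CPM (2.69, SE 0.23, adjusted p = 7.00e-06). Ccl22, an attractant of CCR4-bearing T cells, was higher by 2.10. Of 20 tested genes for receptors of attractants, 6 were higher and 7 lower, with log2 fold changes from -3.55 to 2.25. The shares among all genes with at least 10 CPM were 32.7% and 21.7%. The lower receptors included P2ry12, P2ry13 and Cxcr3, with log2 fold changes of -2.96, -3.55 and -2.75. Ccr1, a receptor for CCL3 and CCL5, measured 242, 122 and 105 CPM against 32.5, 27.4 and 26.5 CPM (-2.37, SE 0.27, adjusted p = 0.000339). Ccr2, the CCL2 receptor of monocytes, was higher by 0.73. The populations thus differed in opposite directions for CCL2 and its receptor.

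Inflammatory cytokine genes did not move as a group, with 5 higher and 8 lower of 26. Tnf measured 148, 88.9 and 83.5 CPM in the MHCII-low libraries and 128, 76.7 and 70.4 CPM in the CD11c-positive libraries, with overlap (-0.23, SE 0.22, adjusted p = 0.450). Tnf was called lower when the 6 libraries alone were fitted with the pairing (adjusted p = 0.0246) and without the filter on low counts (0.0389). The SE was 0.07 and 0.09 in these fits, at log2 fold changes of -0.25 and -0.24. Tnf was not called in the 6 libraries without the pairing. Il1b measured 43.6, 85.1 and 129 CPM against 146, 215 and 226 CPM (1.24, SE 0.37, adjusted p = 0.0348). The call of Il1b was lost without MHCII-low replicate 1 (adjusted p = 0.154) or 2 (0.102), without CD11c-positive replicate 1 (0.0858), 2 (0.133) or 3 (0.0879), without replicate 2 (0.170) and with all 21 libraries in the fit (0.102). Osm, oncostatin M, was lower at 163, 71.6 and 72.0 CPM against 25.9, 20.7 and 25.5 CPM (-2.02, SE 0.23, adjusted p = 0.000237). Nlrp3, the inflammasome sensor, was higher by 0.50 (SE 0.08, adjusted p = 0.000469), a call lost with all 21 libraries in the fit (adjusted p = 0.0895). The higher count fell to 2 without CD11c-positive replicate 1 or MHCII-low replicate 1, and the lower count to 4 without the pairing by number.

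Interferon response genes were lower in 14 and higher in 1 of 28, with a median of -0.48, and the higher gene was Cxcl9. Oas2, a sensor of double-stranded RNA, measured 78.1, 46.4 and 45.5 CPM in the MHCII-low libraries against 11.84, 12.997 and 10.994 CPM in the CD11c-positive libraries (-2.23, SE 0.18, adjusted p = 1.28e-05). Stat2, which carries the type I interferon signal, was lower (-0.66, SE 0.09, adjusted p = 0.000123). The list summed to 328 to 396 CPM of the library total against 478 to 624 CPM. The count of 14 came to 7 without CD11c-positive replicate 1, to 9 without MHCII-low replicate 1, to 9 without replicate 2 and to 5 with all 21 libraries in the fit.

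Matrix proteases were higher in 7 and lower in 5 of 21, near the shares among all genes with at least 10 CPM (32.7% and 21.7%). Besides Mmp12, its neighbour Mmp13, a collagenase, was higher by 0.84, at a mean of 24.8 CPM against 13.8 CPM (SE 0.16, adjusted p = 0.00188). Mmp9, a gelatinase, was lower (-1.33, SE 0.19, adjusted p = 0.000188), with the call lost when all 21 libraries were fitted (adjusted p = 0.0602). Serpinb2, an inhibitor of plasminogen activators, measured 5.23, 4.98 and 4.80 CPM against 1.46, 1.00 and 0.873 CPM (-2.19, SE 0.23, adjusted p = 1.69e-05). Fewer members were lower without replicate 2, namely 3.

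Growth factor genes were lower more often than higher, 9 against 4 of 24. Bmp2, a bone morphogenetic protein, measured 126, 72.0 and 62.2 CPM in the MHCII-low libraries against 13.8, 12.6 and 13.2 CPM in the CD11c-positive libraries (-2.68, SE 0.25, adjusted p = 7.92e-05). Pdgfc, a growth factor for fibroblasts and adipocyte precursors, measured 80.8, 70.9 and 61.4 CPM against 12.6, 20.5 and 18.5 CPM (-2.09, SE 0.22, adjusted p = 9.77e-05). Hbegf, an EGF receptor ligand, was lower (-2.19, SE 0.25, adjusted p = 0.000233), as was Gas6, the ligand of AXL and MERTK (-2.59). Vegfa was the higher member with the largest change.

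Genes for receptors and bridges of dying cells moved both ways. Mfge8, which links phosphatidylserine to integrins, measured 24.1, 50.7 and 52.6 CPM in the MHCII-low libraries against 106, 169 and 198 CPM in the CD11c-positive libraries (1.91, SE 0.11, adjusted p = 1.17e-07). Axl measured 149, 283 and 293 CPM against 704, 597 and 640.1 CPM (1.46, SE 0.18, adjusted p = 0.000237). Mertk, Timd4 and Gas6 were lower, as given above. Of the 22 efferocytosis genes, 8 were higher and 5 lower, near the shares among all genes with at least 10 CPM (32.7% and 21.7%).

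Cytokine receptors were higher in 13 and lower in 6 of 26. The GM-CSF receptor chains Csf2rb and Csf2ra were higher by 1.15 and 0.41, in contrast to the lower M-CSF receptor gene Csf1r. Tgfbr1 measured 130, 173 and 188 CPM against 345, 327 and 326 CPM (1.03, SE 0.11, adjusted p = 1.98e-05), while Tgfbr2, its partner, was lower (-0.96). Il6ra (-0.84, SE 0.07, adjusted p = 2.73e-06) and Tnfrsf1a (-0.75, SE 0.07, adjusted p = 4.34e-06) were lower.

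Genes of the immediate early response and of the heat shock response, which can be induced when tissue is digested, were lower in 19 and higher in 1 of 22. Jun measured 936, 794 and 818 CPM in the MHCII-low libraries against 407, 348 and 416 CPM in the CD11c-positive libraries (-1.13, SE 0.08, adjusted p = 5.15e-07). Atf3 measured 1258, 903 and 927 CPM against 558, 385 and 426 CPM (-1.19, SE 0.09, adjusted p = 9.04e-07). Hspa1a measured 237, 349 and 273 CPM against 53.9, 87.6 and 85.3 CPM (-1.95, SE 0.09, adjusted p = 2.47e-08). The list summed to 8159 to 10227 CPM of the library total against 13575 to 15796 CPM, without overlap. Its part in the lower Klf4, Ccl2, Ccl7, Osm and Hbegf, which are also rapidly induced genes, was not tested.

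Markers of other cells differed in level and direction. Fibroblast markers summed to 1225 to 2179 CPM of the library total in CD11c-positive and 1340 to 2897 CPM in MHCII-low libraries, with replicate 2 highest in both. Of 16, 5 were lower and 0 higher, and without the pairing by number 0 were lower. Mast cell and eosinophil markers ran from 13.5 to 46.9 CPM and from 13.4 to 85.5 CPM, and replicate 1 was lowest in both populations. Of 9 tested, 5 were lower and 2 higher, with a median of -0.90. The calls of Mcpt4, Cpa3 and Cma1 were lost without the pairing by number (adjusted p = 0.491, 0.534 and 0.474). B cell markers summed to 85.6 to 115 CPM against 166 to 200.5 CPM, mostly from Ighm, the IgM heavy chain gene (-1.09, SE 0.18, adjusted p = 0.00145). Ighm was the only called member of that list that was lower, while the antibody genes Igkc (1.75) and Jchain (2.18) and the B cell factor gene Pax5 (2.51) were higher, and the median of the list was 0.57. T and NK cell markers summed to 7.63 to 8.25 CPM and 8.66 to 14.3 CPM. Of 13 tested, 4 were lower and 1 higher, with a median of -0.90. The call of Cd3e, a T cell receptor component at a low level, was lost without the pairing by number (adjusted p = 0.0543). Adipocyte markers summed to 17.8 to 21.4 CPM and 15.8 to 19.0 CPM, and neutrophil markers to 0.688 to 1.33 CPM and 0.798 to 1.26 CPM.

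Dendritic cells can carry MHC class II and CD11c as well. Of 19 dendritic cell markers, 6 were higher and 5 lower, near the shares among all genes with at least 10 CPM (32.7% and 21.7%). Flt3 (2.41), Ccr7 (2.25), Cadm1 (1.93) and Clec9a (1.78) were among the higher ones. The lower ones included Siglech, a lectin of plasmacytoid dendritic cells (-3.63), Cd209a (-3.23), Kmo (-2.84) and Irf4 (-1.26). Zbtb46, a factor that separates dendritic cells from macrophages, was not called (-0.11), nor was Xcr1 (-0.70). Their sum was 384 to 493 CPM of the library total against 364 to 402 CPM, and 908 to 1642 CPM in obese monocyte-derived cells. In such bulk libraries a change in the share of a cell type cannot be told apart from a change in RNA per cell.

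**Figure D4:**
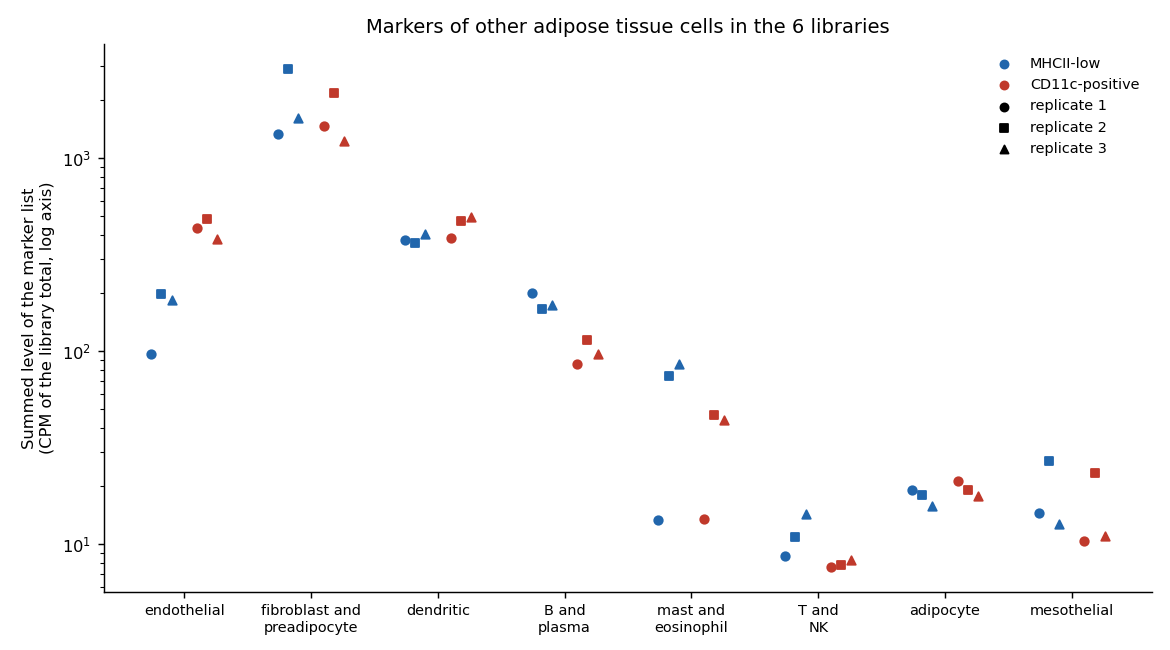
Summed CPM of the library total (log axis) for marker lists of 8 other cell types in the MHCII-low (blue) and CD11c-positive (red) libraries, with the replicate number given by the marker shape. The endothelial sums are higher in all CD11c-positive libraries (379 to 482 against 97.0 to 199 CPM), the B cell sums, mostly Ighm, are lower although 3 of the 4 called members were higher, and the fibroblast sums are highest in replicate 2 of both populations.

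CD11c-negative macrophages from obese mice showed where along the sort the genes differed. These comparisons share libraries with the main one, so their values are set side by side only. Against CD11c-negative macrophages, 14.2% of tested genes were higher and 11.9% lower in CD11c-positive macrophages, and CD11c-negative against MHCII-low macrophages gave 6.10% higher and 7.88% lower. Of the 20 lipid-associated genes, 19 were higher in CD11c-positive than in CD11c-negative macrophages, whereas 5 were higher and 2 lower in CD11c-negative than in MHCII-low macrophages. Gpnmb averaged 532 ± 235 CPM in MHCII-low macrophages, 635 ± 195 CPM in the CD11c-negative ones and 2471 ± 387 CPM in the CD11c-positive ones (SD, n = 3 each). Mmp12 averaged 145 ± 64.9, 138 ± 50.0 and 959.99 ± 280.03 CPM in the same order. For both genes CD11c-negative and MHCII-low macrophages did not differ beyond their spread.

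MHC class II genes took another order. CD11c-negative macrophages were sorted with MHC class II, so their class II difference from MHCII-low macrophages describes the gate as well as the cells. H2-Aa averaged 393 ± 79.9 CPM in MHCII-low macrophages, 3152 ± 354 CPM in the CD11c-negative ones and 2162 ± 502 CPM in the CD11c-positive ones (SD, n = 3 each). Of the 14 class II genes, 7 were lower and 2 higher in CD11c-positive than in CD11c-negative macrophages, and 10 were higher in CD11c-negative than in MHCII-low macrophages. Ctss was among the 2, with 1851 ± 155 CPM in CD11c-positive macrophages against 909 ± 146 CPM without CD11c (1.03, adjusted p = 2.68e-06).

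Most resident genes were lower in CD11c-negative than in MHCII-low macrophages. Lyve1 averaged 411 ± 195 CPM in MHCII-low macrophages, 39.6 ± 10.4 CPM in the CD11c-negative ones and 7.20 ± 0.667 CPM in the CD11c-positive ones (SD, n = 3 each). Of the 26 resident genes, 18 were lower and 2 higher in CD11c-negative than in MHCII-low macrophages, the higher ones being Mgl2 (0.55) and Lilra5 (1.46), and 17 were lower and 0 higher in CD11c-positive than in CD11c-negative macrophages. Timd4 and Vsig4 showed the first difference but not the second, with log2 fold changes of -3.24 and -2.87 between CD11c-negative and MHCII-low macrophages and of -0.56 and -0.17 (adjusted p = 0.232 and 0.799) between CD11c-positive and CD11c-negative macrophages. Axl likewise differed between CD11c-negative and MHCII-low macrophages (1.39, adjusted p = 0.00113) but was not called between CD11c-positive and CD11c-negative macrophages (0.07, adjusted p = 0.798).

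**Figure D5:**
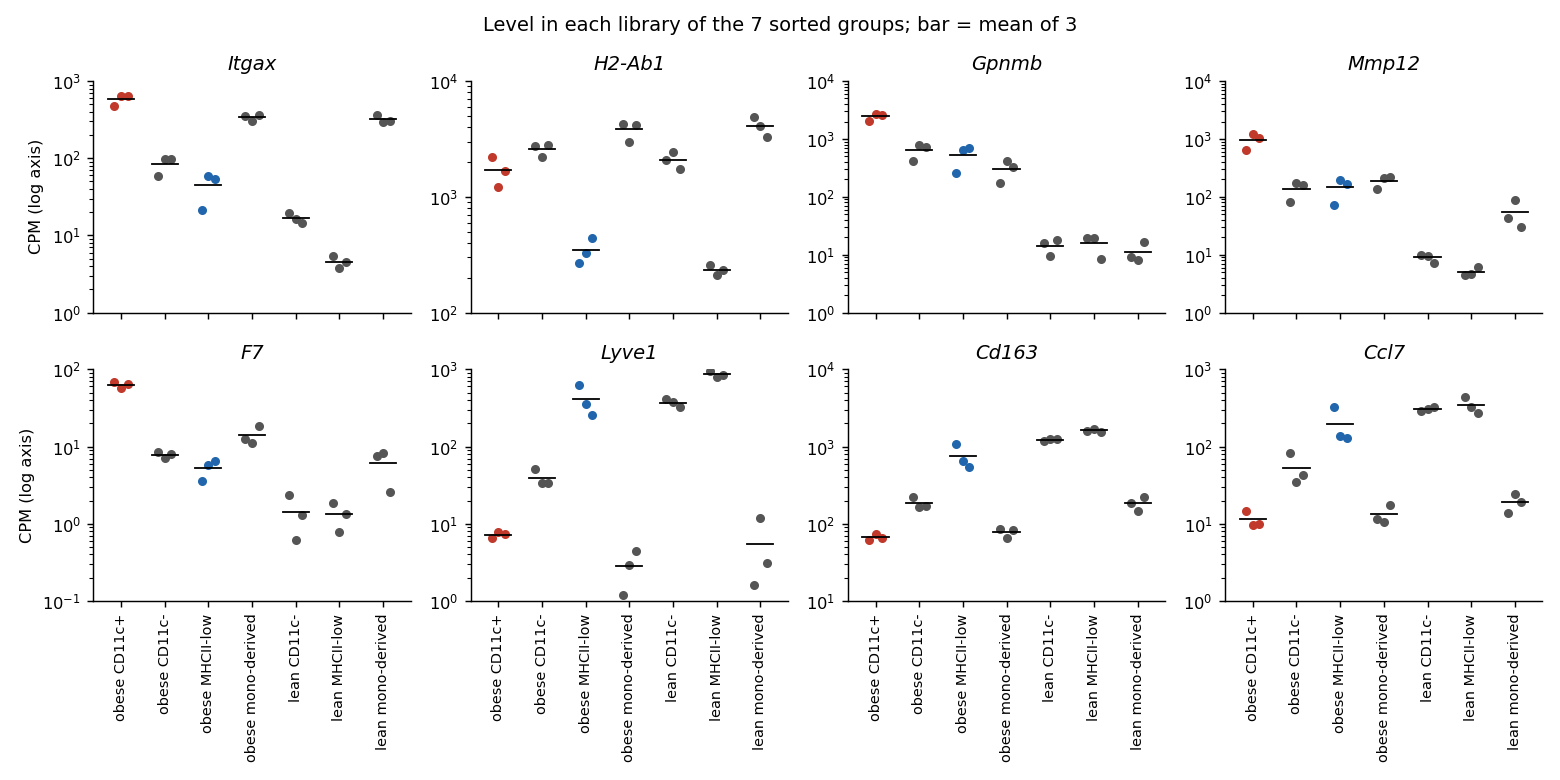
CPM (log axes) of 8 genes in each library of the 7 sorted groups, with CD11c-positive macrophages in red, obese MHCII-low macrophages in blue, the other groups in grey and a bar at the mean of 3. Gpnmb, Mmp12 and F7 are highest in the CD11c-positive group, the mean of H2-Ab1 is lower there than in the other class II positive groups, and the means of Lyve1, Cd163 and Ccl7 are highest in lean MHCII-low macrophages.

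Across all 7 groups, F7 averaged 63.7 ± 5.58 CPM in CD11c-positive macrophages and 14.04 ± 3.74 CPM in obese monocyte-derived cells, the next highest (SD, n = 3 each). Ear2, an eosinophil-associated ribonuclease, went the other way, at 43.7 ± 16.6 CPM in CD11c-positive macrophages and 99.6 ± 31.1 CPM in obese monocyte-derived cells. Myh15, a myosin heavy chain, averaged 156 ± 51.5 CPM in CD11c-positive and 21.9 ± 11.8 CPM in obese MHCII-low macrophages, and 0.532 ± 0.171 CPM in lean MHCII-low macrophages. These levels across groups are a description and were not tested.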

How the data were processed

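RNA came from a PicoPure kit and libraries from a NuGen Ovation kit, per the labels' protocols. The deposited values are raw read counts for 54532 genes on GRCm38. The submitters' processing notes name bcl2fastq, Trim Galore (0.4.5), STAR (2.6.0a), Subread (1.4.6-p5) and featureCounts. They do not record how strand or reads with several matches were handled, so overlapping genes cannot be told apart, and similar genes may share reads; Mmp12, Fcna, F13a1, H2-DMa, Itgad, Il1b, Cd9 and Maf are examples overlapped on the other strand. Positions come from GENCODE M21 (54495 IDs matched).

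edgeR 4.0.16 fitted a robust quasi-likelihood model with group and replicate number to the 12 obese libraries (TMM scaling, filterByExpr, 6 residual degrees of freedom). Tests were 2-sided with Benjamini-Hochberg adjustment over all tested genes, and SEs are those the F statistic implies. CPM are TMM-scaled; summed lists use plain CPM of the library total. Counting intervals would cover sampling of reads only. The model was also run on simulated counts in which all genes shared the same spread setting and 200 genes were changed. The real genes differ in spread and far more were called, so that run does not give the error rate here.

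Pairing rests on the numbers in the titles and on a check of deviations from group means over 8214 genes. In the compared groups these correlated at 0.302 to 0.524 for equal numbers and -0.385 to 0.0455 for unequal ones. The other obese pairs gave 0.121 to 0.776 for equal and -0.7 to 0.232 for unequal numbers, with overlap. Deviations cancel within each group, so positive equal pairs bring negative unequal ones and part of the contrast is built in. Named genes are the 15 largest changes in each direction (coding, at least 10 CPM, no overlap), up to 4 called members of each of 39 lists by smallest p, and uncalled members; others, such as Apoe, Gpnmb, Cd9, Ccl2, Il1b, Axl and Hmox1, were chosen after their values were seen. Some genes that the rule names are not reported here. Members and lists were chosen with earlier results of these data known.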

Additional observations from a re-analysis of the deposited data

How the results depend on the processing

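The counts of called genes, the counts of called list members and the changes of named genes were recomputed under 18 alternatives. Comparisons with CD11c-negative macrophages, locus counts, gene classes, summed levels and motif shares were not. Of 1404 recomputed list counts, 1211 stayed within 1.5 times the main count and 193 moved. The 7776 called genes came to 5143 with the 6 compared libraries alone and no pairing by number, to 3284 with all 21 libraries and no pairing, and to 4517 among genes with at least 10 CPM in all 3 libraries of either group. Leaving out 1 library gave 5652 to 7159 calls, and leaving out 1 number in both groups gave 4303 to 6722. The 12-library fit without the replicate block gave 5632 calls. The 2218 genes called with a log2 fold change of at least 1 came to 554 under the 10 CPM filter, which tests fewer genes, to 1534 to 2470 without 1 library and to 1620 to 2145 without 1 number. DESeq2 1.42.0 with the block called 7288 genes, and DESeq2 size factors 7734. Of 167 named genes, 137 were tested in all 18 alternatives, and 117 of these had the same call in each; the other 30 were not tested under the 10 CPM filter, and 17 of them had the same call in the rest. In the alternatives that tested them, 0 of the 167 were reversed, and without the block 15 lost their call. Apart from the shared filter, the cause of these differences was not tested. Replicate groups of 3 limit precision, and low genes such as Tnfsf4 and Itgad rest on few reads.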

Other observations

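Further genes with large differences follow. Npas4, a transcription factor known from active neurons, measured 0.964, 2.18 and 2.68 CPM in the MHCII-low libraries and 9.01, 12.6 and 12.7 CPM in the CD11c-positive libraries (log2 fold change 2.63, SE 0.19, adjusted p = 8.03e-07). Map2, a microtubule protein of dendrites, measured 1.20, 3.80 and 7.06 CPM against 9.68, 25.7 and 28.6 CPM (2.52, SE 0.23, adjusted p = 1.03e-05), and a gene on the other strand overlaps it.

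Among the lower genes, Cbr2, a carbonyl reductase, measured 360.1, 170.4 and 139 CPM in the MHCII-low libraries against 9.91, 8.47 and 8.45 CPM in the CD11c-positive libraries (-4.56, SE 0.41, adjusted p = 0.000154). Enpep, the aminopeptidase that processes angiotensin II, measured 162, 81.0 and 76.6 CPM against 4.89, 8.24 and 5.62 CPM (-4.10, SE 0.43, adjusted p = 0.00032). Kmo, an enzyme of tryptophan breakdown counted among the dendritic cell markers, measured 10.2, 6.79 and 4.90 CPM against 1.30, 0.871 and 0.873 CPM (-2.84, SE 0.25, adjusted p = 3.93e-06). Saa3, an acute phase protein counted among the inflammatory genes, measured 12.2, 7.26 and 3.90 CPM against 0.432, 0.938 and 0.593 CPM (-3.53, SE 0.47, adjusted p = 0.000286). In each of these genes MHCII-low replicate 1 was highest. No library overlapped the other population, which was a condition of choice for Cbr2 and Enpep.

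Of 24 antioxidant and oxidase genes, 7 were higher and 4 lower, with a median of 0.11. These counts lie near the shares among all genes with at least 10 CPM (32.7% and 21.7%). Cybb and Cyba, the membrane subunits of the NADPH oxidase, were higher by 0.48 (SE 0.07, adjusted p = 0.000272) and 0.80 (SE 0.11, adjusted p = 0.000219), and Ncf4 by 0.46 (SE 0.09, adjusted p = 0.00111). The calls of Cyba and Ncf4 were lost with all 21 libraries in the fit (adjusted p = 0.0551 and 0.0858). Gpx1, a peroxidase that removes hydrogen peroxide, was higher by 0.68 (SE 0.08, adjusted p = 4.04e-05). Gclm (-0.65), Gclc (-0.55), Gpx3 (-0.58) and Srxn1 (-0.39) were lower.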
